A study of Mus musculus with 11 samples.

Results

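Thymic epithelium expresses a set of genes whose usual home is the outer epidermis. The 32 genes described here were taken by symbol from the 56691 genes of the deposited count table: cornified envelope precursors (Flg, Ivl, Lce1a1, Lce3a, Sprr1a, Sprr1b, Sprr3, Cnfn), enzymes of cornification (Tgm1, Tgm3, Casp14), suprabasal keratins (Krt1, Krt10, Krt77, Krt2, Krt80), desmosomal and corneodesmosomal proteins (Dsg1a, Dsc1, Cdsn), skin proteases and their inhibitor (Klk5, Klk7, Spink5), secreted, surface and calcium-binding proteins of the suprabasal layers (Krtdap, Sbsn, Dmkn, Lypd3, Calm4, Calml3) and regulators (Grhl1, Grhl3, Ovol1, Pou2f1). Each symbol matched 1 row. The rule names genes by function, and the genes were chosen with earlier results of these data known. The sorted cells were bulk epithelium, so the values do not come from isolated keratinocyte-like cells, and fewer such cells and less RNA per cell cannot be told apart.

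The mice were of the NOD strain, which develops autoimmune diabetes, and were 4 to 8 weeks old. They carried the R249C variant of Aire on both copies (R249C/R249C, 3 libraries), on a single copy (WT/R249C, 5 libraries) or on neither copy (WT/WT, 3 libraries). Per the labels, cells that express CD45, the surface marker of blood cells, were depleted from digested thymus, cells that stained for EpCAM were sorted, and libraries were made with a low-input kit. All R249C/R249C libraries, WT/R249C replicates 1 to 3 and WT/WT replicate 1 are labelled batch A, and WT/R249C replicates 4 and 5 and WT/WT replicates 2 and 3 batch B. WT/R249C replicates 4 and 5 carry contradicting labels: the title gives WT/R249C and the genotype field R249C/R249C. They were grouped by title.

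Aire is a transcriptional regulator of medullary thymic epithelium that turns on genes of peripheral tissues, whose products are then shown to developing T cells. Part of the medulla goes further and takes on programmes of other cell types; such mimetic cells include keratinocyte-like cells, which cornify in a way that recalls the upper epidermis and are linked to the structures called Hassall's corpuscles. In skin, keratinocytes leave the basal layer, exchange the basal keratins Krt5 and Krt14 for Krt1 and Krt10, cross-link precursor proteins under the membrane with transglutaminases, and are shed when kallikrein proteases cut the corneodesmosomes. Grainyhead-like factors (Grhl1, Grhl3) and Ovol1 regulate this programme.

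RefSeq promoters (GRCm38.p6, 250 bases before to 50 after a gene's start) were found for 25 of the 32 genes, with 32 promoters among them. The letters TGANTCA, bound by AP-1, a factor with known roles in keratinocyte differentiation, are the same on both strands and stood in 9 of these 32 promoters (28.1%), against 7.81% of the 32851 promoters of the table. They belonged to 7 genes: Flg, Ivl, Sprr1a and Sprr1b, which lie on chromosome 3, and Sbsn, Dmkn and Krtdap, which lie next to each other on chromosome 7. TATAAA on the sense strand stood in 9 of the 32 (28.1%), against 8.32%, and Flg, Ivl, Krtdap, Sprr1a and Sprr1b held both. AACNGGTT, the sequence bound by Grhl factors, was searched on both strands and stood in none of the 32, against 2.09%. The 150 bases before the start site are shown for 6 of the AP-1 carriers. They include the 3 genes of the list with the highest level per length (Krtdap, Sprr1a, Dmkn). The others, Sprr1b, Ivl and Flg, are envelope precursors like Sprr1a and stood at far lower levels. Capitals mark TGANTCA and TATAAA matches. The AP-1 match of the promoter shown begins 81 bases before the start in Krtdap, 146 and 116 in Sprr1a, 89 in Dmkn, 111 in Sprr1b, 116 in Ivl and 103 in Flg, and TATAAA 30, 43, 30, 29 and 53 bases before the start in Krtdap, Sprr1a, Sprr1b, Ivl and Flg. A match is a stretch of letters and no measure of binding.
Krtdap chr7:30787755-30787904, plus strand: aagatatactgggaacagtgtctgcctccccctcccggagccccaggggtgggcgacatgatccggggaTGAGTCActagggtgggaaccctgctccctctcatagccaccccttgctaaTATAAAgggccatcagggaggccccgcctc
Sprr1a chr3:92485882-92486031, minus strand: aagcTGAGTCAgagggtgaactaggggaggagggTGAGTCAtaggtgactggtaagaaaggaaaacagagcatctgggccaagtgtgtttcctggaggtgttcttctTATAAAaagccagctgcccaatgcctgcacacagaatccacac
Dmkn chr7:30763606-30763755, plus strand: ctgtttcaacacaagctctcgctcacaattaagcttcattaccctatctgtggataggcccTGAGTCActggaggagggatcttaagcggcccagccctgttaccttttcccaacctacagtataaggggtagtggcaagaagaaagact
Sprr1b chr3:92438780-92438929, minus strand: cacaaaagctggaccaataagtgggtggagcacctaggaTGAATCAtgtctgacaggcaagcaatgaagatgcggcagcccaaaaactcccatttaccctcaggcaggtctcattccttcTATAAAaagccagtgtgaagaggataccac
Ivl chr3:92573736-92573885, minus strand: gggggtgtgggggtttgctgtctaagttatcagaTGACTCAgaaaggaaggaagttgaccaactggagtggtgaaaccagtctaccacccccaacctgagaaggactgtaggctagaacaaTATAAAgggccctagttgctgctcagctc
Flg chr3:93273396-93273545, plus strand: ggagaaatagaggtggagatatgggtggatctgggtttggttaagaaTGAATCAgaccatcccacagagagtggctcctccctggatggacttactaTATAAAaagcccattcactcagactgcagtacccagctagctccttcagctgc

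Libraries held 60560348 to 182319976 counts, so that 3 counts, the limit a count of 0 allows, correspond to 0.0165 to 0.0495 CPM, a count scaled to the library total; this limit covers counting error only. Of the 352 values (32 genes in 11 libraries), 58 were 0 and 2 lay between 1 and 9 counts, while 275 were of 100 counts or more. Each of the 58 zeros belonged to a gene with over 100 counts in another library. Over the 31 genes that passed the filter on low counts, 49 of 341 values were 0 (14.37%), close to the 14.35% over all 26980 genes that passed. A total of 16 genes had counts in all 11 libraries. Genes with a count numbered 31, 27 and 26 of 32 in R249C/R249C, 31, 30, 20, 31 and 24 in WT/R249C (replicates 1 to 5) and 22, 24 and 28 in WT/WT. The numbers expected after thinning each library to the smallest total ranged from 26 to 31 in R249C/R249C, 20 to 31 in WT/R249C and 22 to 28 in WT/WT, each within 1 gene of the number counted. WT/R249C replicates 3 and 5 had the fewest genes of any kind with a count (22101 and 23073, against up to 31180).

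**Figure D1:**
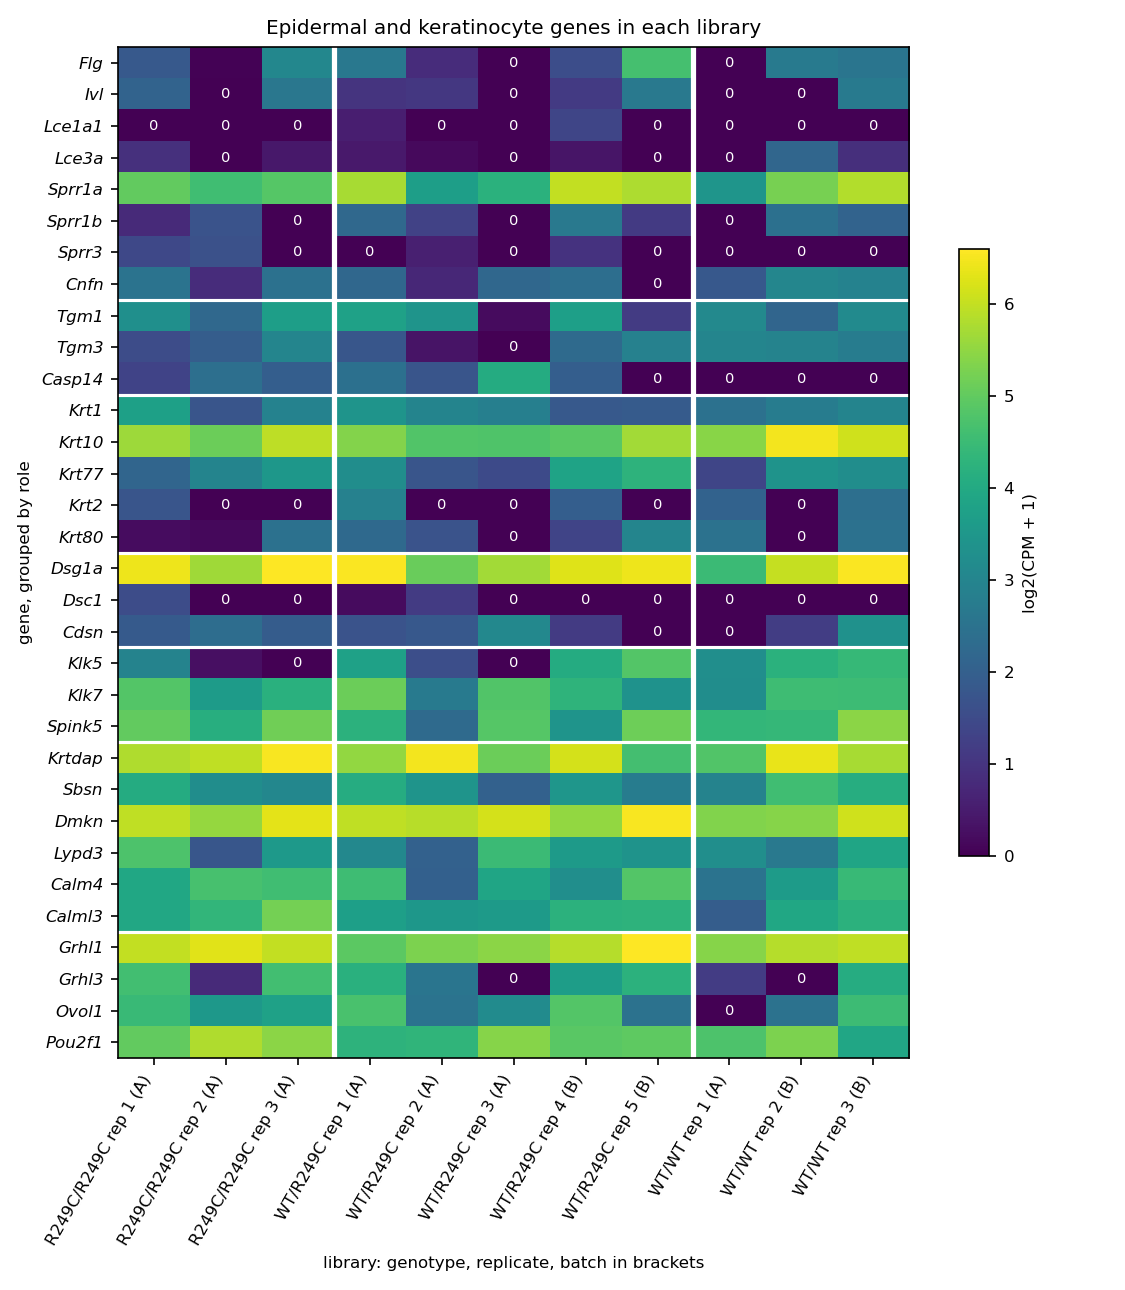
log2(CPM + 1) of the 32 genes (rows, grouped by role with white lines between roles) in the 11 libraries (columns, by genotype, with the batch in brackets); 0 marks a count of 0. Sprr1a, Krt10, Dsg1a, Krtdap, Dmkn, Grhl1 and Pou2f1 are bright in every library, and the 58 zeros are spread over 16 genes, with 12 in WT/R249C replicate 3 and 10 in WT/WT replicate 1.

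Per kilobase of exon, the list spanned a wide range in mean level. Krtdap, which encodes a small secreted protein of differentiating keratinocytes, was highest at 84.4 ± 35.4 CPM per kb (SD over all 11 libraries), followed by the cornified envelope precursor Sprr1a at 43.2 ± 23.4, the secreted Dmkn at 27.4 ± 7.45, Krt10 at 22.1 ± 9.23 and the calmodulin-like Calm4 at 17.2 ± 9.09. The mean ± SD ranges of neighbours among these 5 overlapped. Filaggrin (Flg), the profilaggrin gene of the granular layer, was next to last at 0.252 CPM per kb, and the desmosomal cadherin Dsc1 was last at 0.0580. The place of Flg rests on its length of 18829 exon bases, since its mean was 4.75 CPM. Its transcripts held 8721 distinct 50-base words, and what this does to its level was not tested. By role, the median level per length was 14.2 CPM per kb for the 6 secreted, surface and calcium-binding proteins, 7.54 for the proteases and inhibitor, 3.72 for the regulators, and between 1.06 and 1.37 for envelope precursors, enzymes, keratins and desmosomal proteins. The basal keratins Krt5 and Krt14, which are not on the list and which medullary epithelium also expresses, stood at 410 and 477 CPM per kb, far above Krt10.

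**Figure D2:**
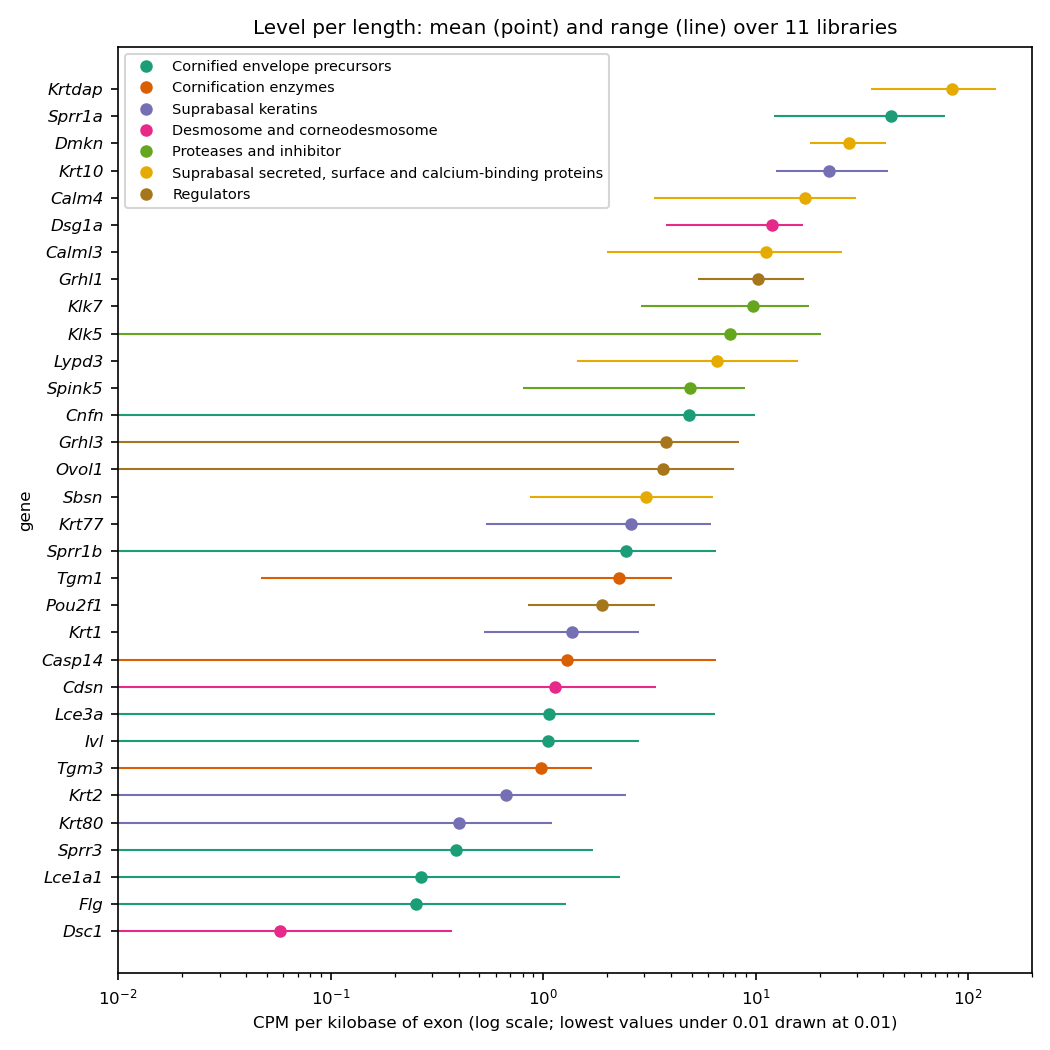
Mean level of each gene in CPM per kilobase of exon (points, log axis) with its range over the 11 libraries (lines), in order of the mean and coloured by role. Krtdap stands at 84.4 and Dsc1 at 0.0580 CPM per kb, and lines that reach the left edge belong to genes with at least 1 library at or near 0.

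Among the envelope precursors, Sprr1a was the only one with counts in every library. It had 31.3, 22.7 and 27.9 CPM in the R249C/R249C libraries, 52.3, 11.9, 17.5, 62.8 and 54.0 in WT/R249C and 9.83, 37.1 and 56.0 in WT/WT. The 4 batch B libraries and WT/R249C replicate 1 were the 5 highest, and the 3 genotypes overlapped. Flg ranged up to 24.1 CPM with 2 zeros, Ivl (involucrin) up to 5.41 with 4 zeros, Cnfn (cornifelin) up to 7.18 with 1 zero, and Sprr1b, another small proline-rich protein, up to 5.40 with 3 zeros. The late envelope genes Lce1a1, Lce3a and Sprr3 averaged under 1 CPM, with 9, 4 and 7 zeros. In the transcripts of GENCODE M21, 19.9% of the 50-base words of Lce1a1 and 19% of those of Lce3a also occur in other genes. Reads of these genes could therefore be split.

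Of the cornification enzymes, the membrane transglutaminase Tgm1 was highest, at 8.74, 3.68 and 11.97 CPM in the R249C/R249C libraries, 12.7, 9.61, 0.149, 12.3 and 1.21 in WT/R249C and 7.57, 3.45 and 7.96 in WT/WT. WT/R249C replicates 3 and 5 were far below the others, and the genotypes overlapped. Tgm3, the epidermal transglutaminase, averaged 3.92 ± 2.74 CPM in R249C/R249C, 2.61 ± 2.69 in WT/R249C and 6.50 ± 0.598 in WT/WT (SD, n = 3, 5 and 3). Krt10 led the suprabasal keratins, with 48.3, 33.4 and 60.7 CPM in the R249C/R249C libraries, 40.0, 27.1, 26.3, 29.0 and 50.5 in WT/R249C and 41.7, 88.9 and 68.0 in WT/WT. Its usual partner Krt1 stood lower, between 2.34 and 12.5 CPM, and per length Krt10 was at 22.1 CPM per kb and Krt1 at 1.37. Krt77 ranged from 1.58 to 18.1 CPM, Krt2, a keratin of late suprabasal cells, reached 6.45 with 6 zeros and Krt80 reached 7.01 with 2 zeros.

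Dsg1a, a desmosomal cadherin of the upper epidermis, had the highest mean CPM of all 32 genes. Its values were 84.7, 49.3 and 95.6 CPM in the R249C/R249C libraries, 93.1, 33.3, 49.9, 76.2 and 85.3 in WT/R249C and 21.5, 64.1 and 92.7 in WT/WT. WT/WT replicate 1 was lowest and the genotypes overlapped. In the transcripts of GENCODE M21, 35.0% of the 50-base words of Dsg1a also occur in other genes, mostly in its near-identical neighbour Dsg1b (4.70 to 26.0 CPM), so reads could be split between them. Corneodesmosin (Cdsn) ranged from 0 to 9.12 CPM. Spink5, which encodes the protease inhibitor LEKTI, had 31.2, 16.5 and 34.7 CPM in the R249C/R249C libraries, 18.02, 3.86, 28.0, 9.72 and 34.2 in WT/R249C and 19.4, 20.02 and 42.5 in WT/WT. Its targets Klk5 and Klk7 reached 27.2 and 33.6 CPM, Klk7 in every library and Klk5 with 2 zeros.

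Dmkn (dermokine) was the highest by CPM of the secreted and calcium-binding group, at 60.9, 46.1 and 78.4 CPM in the R249C/R249C libraries, 61.7, 57.7, 71.1, 45.2 and 90.6 in WT/R249C and 39.5, 41.2 and 68.7 in WT/WT. Its highest value was in WT/R249C replicate 5 and its lowest in WT/WT replicate 1, and the genotypes overlapped. Its chromosomal neighbours ranged from 23.6 to 91.9 CPM (Krtdap) and from 3.15 to 22.9 CPM (Sbsn, suprabasin). Lypd3 ranged from 2.39 to 26.0 CPM and Calm4 from 3.04 to 27.3. The regulators are led by Grhl1, whose values stand with the comparisons. Grhl3 ranged from 0 to 23.2 CPM, with zeros in WT/R249C replicate 3 and WT/WT replicate 2. For Ovol1, 18.7% of 50-base words lie antisense to Gm31166, and for the octamer factor Pou2f1 16.8% lie antisense to the T cell receptor gene Cd247 (0 to 12.4 CPM), and no source used here says that strand was counted.

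The sort markers were present, with Epcam at 355 to 521 CPM and Foxn1, the master regulator of thymic epithelium, at 58.1 to 189, while Ptprc, which encodes CD45, was at 0.217 to 26.2. The genotype means of the summed level of the 32 genes lay closer together than the SD within a genotype. The sum was 603, 469 and 687 CPM in the R249C/R249C libraries, 569, 355, 429, 557 and 648 in WT/R249C and 297, 574 and 672 in WT/WT, that is 586 ± 110, 512 ± 118 and 514 ± 194 (SD). WT/WT replicate 1 was the lowest library and held the lowest value, or tied for it at 0, for 15 of the 32 genes. The sum of 6 markers of mature medullary epithelium (Aire, Cd80, Cd40, Fezf2, Tnfrsf11a and H2-Aa, none at 0 in any library) was 3435, 2214 and 3778 CPM in the R249C/R249C libraries, 3424, 2059, 2855, 3414 and 2732 in WT/R249C and 1821, 2690 and 3374 in WT/WT. The 3 libraries with the lowest sum of these markers, R249C/R249C replicate 2, WT/R249C replicate 2 and WT/WT replicate 1, were among the 4 with the lowest sum of the epidermal genes. Aire itself had 634, 318 and 858 CPM in the R249C/R249C libraries, 633, 174, 769, 589 and 425 in WT/R249C and 312, 391 and 768 in WT/WT. The 6 B cell markers summed to 248.7 to 531 CPM in R249C/R249C, 92.9 to 481 in WT/R249C and 1394 to 2989 in WT/WT, and 0 to 3 of them were at 0 in a library. Markers of other skin cells were low: 6 inner root sheath and hair keratins summed to 2.22 to 7.23 CPM in R249C/R249C, 0 to 20.7 in WT/R249C and 12.1 to 26.9 in WT/WT, with 1 to 6 of them at 0, and 5 melanocyte markers to at most 6.51 CPM with 1 to 4 at 0. The part of these sums in the differences between libraries was not tested.

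**Figure D3:**
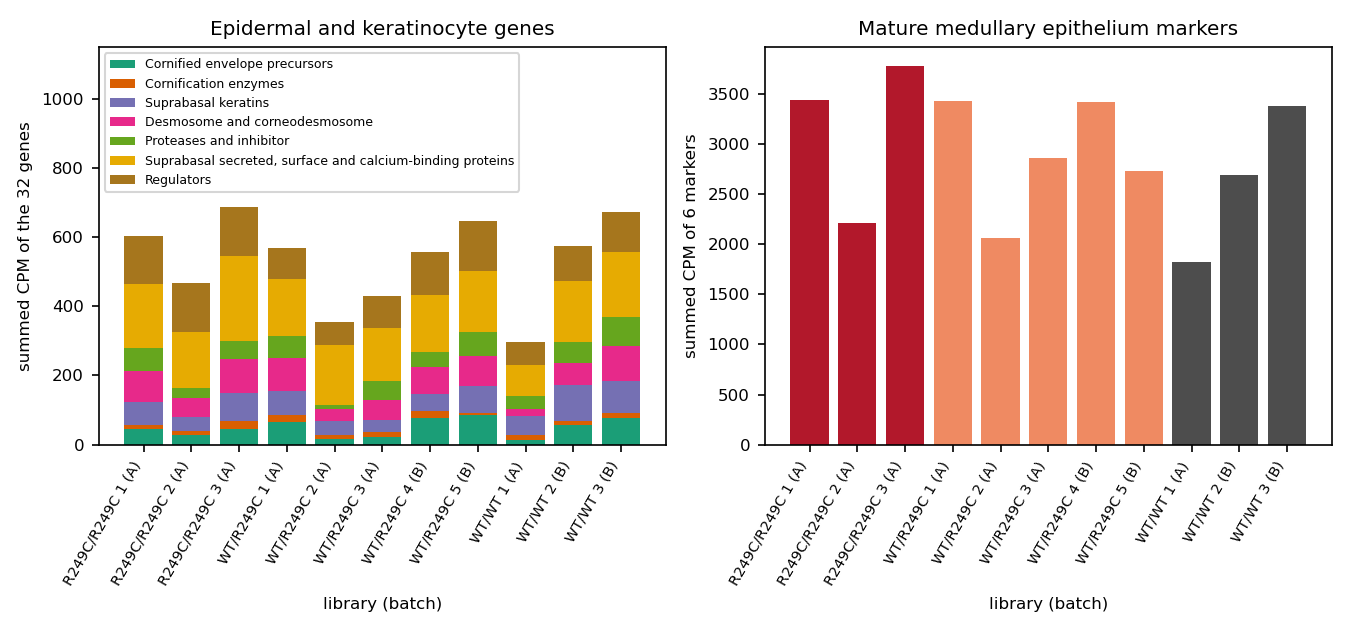
Left, summed CPM of the 32 epidermal genes in each library, stacked by role; right, summed CPM of 6 markers of mature medullary epithelium in the same libraries (batch in brackets). R249C/R249C replicate 2 (469 and 2214 CPM), WT/R249C replicate 2 (355 and 2059) and WT/WT replicate 1 (297 and 1821) are low on both sides.

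R249C/R249C libraries were first set against WT/WT, to ask how the list differs where no unaltered Aire copy is left. No gene of the list, and no gene of the table, passed an adjusted p of 0.05 in edgeR's quasi-likelihood test with Benjamini-Hochberg adjustment, fitted to all 11 libraries with batch as a term (0 of 26980 genes, 0%). At an unadjusted p under 0.05, 3 of the 31 genes tested were higher and 0 lower, against 3.21% of all genes. Lce1a1, at 0 in 9 of the 11 libraries, did not pass the filter on low counts and was not tested. The fitted log2 fold change was above 0 for 22 of 31, against 49% of all genes, with a median of 0.63 against -0.02. All 4 regulators and 5 of the 6 secreted, surface and calcium-binding genes were on the higher side, and 4 of the 5 suprabasal keratins on the lower side. WT/R249C against the same WT/WT libraries gave the same splits for these roles. In batch B against batch A, all 4 regulators and all 6 secreted, surface and calcium-binding genes were also higher. The regulators Ovol1 and Grhl3 had zeros in some libraries and wide fits in R249C/R249C against WT/WT (SE 2.57 and 3.02). By mean CPM, without batch adjustment, 19 of the 32 were higher and 12 lower in R249C/R249C.

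Grhl1 had the smallest p. Its R249C/R249C values were 62.2, 77.5 and 62.3 CPM, against 40.8, 57.2 and 61.1 in WT/WT. All 3 R249C/R249C values lay above all WT/WT values, the closest pair being 62.2 and 61.1 CPM. The fitted log2 fold change was 0.96 (SE 0.26, 95% interval 0.37 to 1.55, unadjusted p = 0.0051, adjusted p = 1 by edgeR). Calml3, a calmodulin-like protein of stratified epithelia, was at 14.5, 19.4 and 36.4 CPM in R249C/R249C, against 2.83, 14.4 and 17.8 in WT/WT. The groups overlapped, and WT/WT replicate 1 was far below every other library. Its log2 fold change was 2.16 (SE 0.62, unadjusted p = 0.0069, adjusted p = 1 by edgeR). Casp14, a caspase that acts in filaggrin breakdown, was at 1.53, 4.31 and 2.95 CPM in R249C/R249C. It had no count in the 3 WT/WT libraries. By the limit of 3 counts over these libraries it was at least 396-fold higher, a bound for counting error only. The 95% interval of its fitted log2 fold change was 3.24 to 16.97 (unadjusted p = 0.0103, adjusted p = 1 by edgeR).

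The groups did not overlap upward for Grhl1 and Casp14, against 3.42% of all genes tested, and downward for the protease Klk5, which was named for this after its values were seen, against 4.68%. Klk5 was at 6.78, 0.213 and 0 CPM in R249C/R249C, against 8.55, 17.5 and 20.2 in WT/WT, and its fitted log2 fold change was -1.43 (SE 2.38, unadjusted p = 0.565, adjusted p = 1 by edgeR). Its 4 batch B values also lay above its 7 batch A values, and all R249C/R249C libraries are of batch A. Within batch A, where a single WT/WT library stands against 3, the log2 fold change was 0.73 for Grhl1 and 3.04 for Calml3 and the median of the list was 1.27. With no batch term these were 0.39, 1.05 and 0.36, and without WT/WT replicate 1 Calml3 was at 1.33. DESeq2 called Casp14, Dsc1 and Calml3 (adjusted p = 0.00342, 0.0051 and 0.00577), with 408 genes (1.51%) called in all. The Dsc1 call rests on counts in 1 of 3 R249C/R249C libraries, with none in WT/WT.

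**Figure D4:**
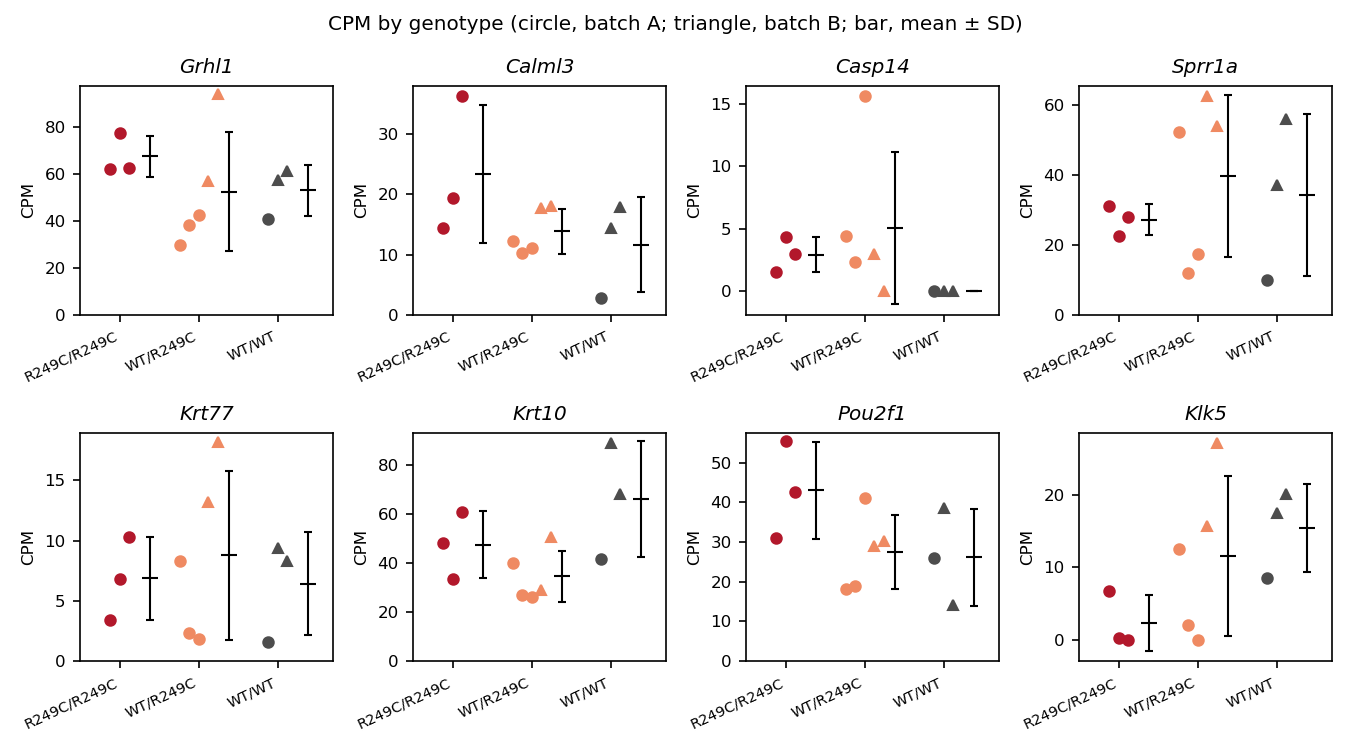
CPM of 8 genes in R249C/R249C, WT/R249C and WT/WT libraries (circles, batch A; triangles, batch B; black bars, mean ± SD, n = 3, 5 and 3); each axis has its own scale. Grhl1 has all 3 R249C/R249C values above 62 CPM and the 3 batch A WT/R249C values at 29.8 to 42.5, Casp14 is at 0 in all WT/WT libraries, and Klk5 is at or below 6.78 in R249C/R249C.

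WT/R249C libraries were then set against WT/WT, to ask about the effect of 1 variant copy beside an unaltered one. Again no gene passed in edgeR (0 of 26980, 0%). At an unadjusted p under 0.05, Casp14 was higher and Krt10 lower, 2 of 31 genes against 3.48% of all, and the log2 fold change was above 0 for 20 of 31, against 51.5%, with a median of 0.18 against 0.02. By mean CPM 17 of the 32 were higher and 15 lower, and the groups overlapped for each gene of the list, while 1.1% of all genes tested were without overlap upward and 1.83% downward. Casp14 was at 4.37, 2.33, 15.6, 2.95 and 0 CPM in WT/R249C and at 0 in the 3 WT/WT libraries. That is at least 571-fold higher, a bound for counting error only. The 95% interval of its fitted log2 fold change was 4.57 to 17.95 (unadjusted p = 0.00538, adjusted p = 1 by edgeR). WT/R249C replicate 3, a library with few genes detected, held the highest Casp14 value of all, and replicate 5 held none. Krt10 averaged 34.6 ± 10.5 CPM in WT/R249C and 66.2 ± 23.6 in WT/WT (SD, n = 5 and 3), with a log2 fold change of -0.75 (SE 0.30, 95% interval -1.44 to -0.06, unadjusted p = 0.0371, adjusted p = 1 by edgeR). Only WT/R249C replicate 5 exceeded the lowest WT/WT library, and the within-batch values were -0.45 in batch A and -0.95 in batch B. Sprr3 was at 0, 0.498, 0, 0.952 and 0 CPM in WT/R249C, with counts in 2 of 5 libraries, and at 0 in WT/WT. That is at least 46.8-fold higher for counting error only. The 95% interval of its fitted log2 fold change was -1.15 to 17.85 (unadjusted p = 0.0762, adjusted p = 1 by edgeR). DESeq2 called Casp14 and Dsc1 (adjusted p = 1.64e-05 and 0.000421), with 276 genes (1.02%) called in all. The Dsc1 call rests on counts in 2 of 5 WT/R249C libraries, at 1.20 and 0.134 CPM, with none in WT/WT. The median of the list was 1.37 within batch A, 0.18 within batch B, 0.75 when WT/WT replicate 3 was left out, 0.41 when WT/WT replicate 2 was, 0.61 when WT/R249C replicate 5 was and 0.32 when WT/R249C replicate 3 was.

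The 2 genotypes that carry the variant were compared in the 6 libraries of batch A, R249C/R249C over WT/R249C. No gene passed in edgeR (0 of 23695, 0%). At an unadjusted p under 0.05, Grhl1 and Calml3 were higher, 2 of the 30 genes tested against 1.08% of all, and the log2 fold change was above 0 for 23 of 30, against 50.8%, with a median of 0.41 against 0.01. All 4 regulators and all 6 secreted, surface and calcium-binding genes were on the higher side. Grhl1 was at 62.2, 77.5 and 62.3 CPM in R249C/R249C, against 29.8, 38.1 and 42.5 in WT/R249C. The groups were well apart, and the log2 fold change was 0.92 (SE 0.22, 95% interval 0.39 to 1.44, unadjusted p = 0.00505, adjusted p = 1 by edgeR). The contested batch B libraries, WT/R249C replicates 4 and 5, were at 56.8 and 94.0 CPM and are not part of this fit. Calml3 was at 14.5, 19.4 and 36.4 CPM in R249C/R249C, against 12.3, 10.2 and 11.1 in WT/R249C, again without overlap, with a log2 fold change of 1.09 (SE 0.44, unadjusted p = 0.0478, adjusted p = 1 by edgeR). Pou2f1 was at 31.2, 55.5 and 42.5 CPM in R249C/R249C, against 18.1, 19.03 and 41.1 in WT/R249C, which overlapped (log2 fold change 0.79, SE 0.39, unadjusted p = 0.0907, adjusted p = 1 by edgeR). Grhl1 and Calml3 were the genes of the list without overlap upward, against 3.45% of all genes tested, and none lay without overlap downward, against 5.41%.

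This comparison and that with WT/WT share the 3 R249C/R249C libraries, so the higher Grhl1 and Calml3 of both are not independent. DESeq2 called no gene of the list here and 33 genes in all (0.139%). The median of the list was 0.12 without R249C/R249C replicate 1, 0.21 and 0.25 without WT/R249C replicates 2 and 3 and 0.86 without WT/R249C replicate 1. Calml3 was at 0.65 without R249C/R249C replicate 3.

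**Figure D5:**
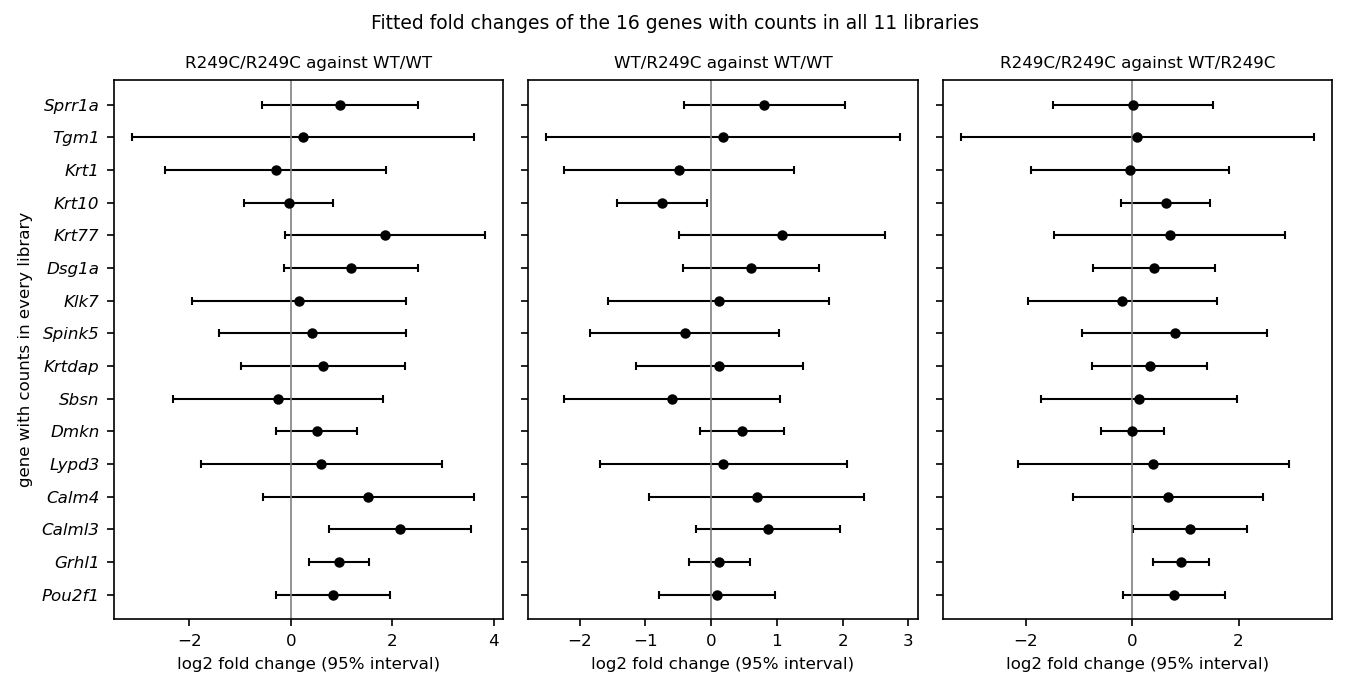
Fitted log2 fold changes (points) with 95% intervals (lines) of the 16 genes with counts in all 11 libraries, for R249C/R249C against WT/WT, WT/R249C against WT/WT and R249C/R249C against WT/R249C; each panel has its own scale and genes with zeros are not drawn. Intervals lie above 0 for Grhl1 and Calml3 in both panels with R249C/R249C and below 0 for Krt10 in the middle panel, before adjustment.

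In the fit of all 11 libraries, batch B was above batch A for 25 of 31 genes, against 49.2% of all genes, with a median of 0.53 against -0.01. This median depended on the contested libraries: it was 0.19 with them counted as R249C/R249C and 1.27 without them, and 0.81 without WT/WT replicate 2. No gene passed in edgeR (0 of 26980, 0%), and at an unadjusted p under 0.05, 4 of 31 genes were higher, against 3.58% of all. Grhl1 averaged 67.3 ± 17.9 CPM in batch B and 50.5 ± 17.1 in batch A (log2 fold change 0.84, SE 0.20, unadjusted p = 0.00228, adjusted p = 1 by edgeR). Its log2 fold change was 0.25 with the contested libraries counted as R249C/R249C and 0.47 without them. Krt77, a suprabasal keratin, had 13.2 and 18.1 CPM in WT/R249C and 9.41 and 8.32 in WT/WT of batch B. In batch A it had 3.44, 6.84 and 10.3 in R249C/R249C, 8.32, 2.36 and 1.82 in WT/R249C and 1.58 in WT/WT (log2 fold change 2.07, SE 0.67, unadjusted p = 0.0124, adjusted p = 1 by edgeR). Sprr1a averaged 52.5 ± 10.9 CPM in batch B and 24.8 ± 14.5 in batch A (log2 fold change 1.46, SE 0.52, unadjusted p = 0.0198, adjusted p = 1 by edgeR; n = 4 and 7). Klk5 was the gene of the list whose batches did not overlap, at 15.8, 27.2, 17.5 and 20.2 CPM in batch B and at most 12.6 in batch A, against 0.297% of all genes upward and 0.241% downward. DESeq2 called 1 gene of the list, Dsc1 (adjusted p = 6.04e-08), which was at 0 in the 4 batch B libraries and in 4 of the 7 batch A libraries, so that the call rests on 3 libraries, with 181 genes (0.671%) called in all.

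The WT/R249C difference from WT/WT was tested for unlikeness between batches in the 8 libraries of these genotypes. No gene passed in edgeR (0 of 25519, 0%), and 2 of 29 genes had an unadjusted p under 0.05, against 3.91% of all. The difference, batch B minus batch A, was below 0 for 21 of 29 genes, and above 0 for 8, against 39.5% of all genes, with a median of -1.28 against -0.37. This median was -0.46 without WT/R249C replicate 1 and -0.68 without WT/WT replicate 3. The smallest p belonged to Ovol1, which was at 27.6 and 4.56 CPM in WT/R249C and 4.59 and 21.9 in WT/WT of batch B, and at 24.9, 4.74 and 7.99 in WT/R249C and 0 in WT/WT of batch A (unadjusted p = 0.00941, adjusted p = 0.983 by edgeR). Cdsn was at 1.20 and 0 CPM in WT/R249C and 1.30 and 9.12 in WT/WT of batch B, and at 2.24, 2.54 and 7.43 in WT/R249C and 0 in WT/WT of batch A (unadjusted p = 0.0477, adjusted p = 0.983 by edgeR). Both rest on a zero in WT/WT replicate 1, which alone stands for its genotype in batch A. Calml3 differed by -1.70 (SE 0.70, unadjusted p = 0.0525, adjusted p = 0.983 by edgeR). DESeq2 called Ovol1, Cdsn and Ivl, with 810 genes (3.17%) called in all. Ivl, with 4 zeros over the 11 libraries, was also at 0 in WT/WT replicate 1.

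A list of 50 other genes of epidermal differentiation, drawn up with earlier results of these data known, also held no gene that passed in edgeR in any of the 5 comparisons. In R249C/R249C against WT/WT, 31 of 49 tested were on the higher side (median 0.40) and 18 on the lower, against 49% of all genes higher. By role, 11 of the 13 other envelope genes were higher (median 1.88), none at an unadjusted p under 0.05 by edgeR. They leaned the same way in WT/R249C against WT/WT (9 of 13 higher, median 1.34) and in batch B against batch A (12 of 13, 1.62). Also higher in R249C/R249C were 5 of 6 genes of barrier lipids and filaggrin processing (median 0.56) and 8 of 11 basal and other keratins (0.40). Fewer were higher among junction genes (1 of 5, median -0.15), regulators (3 of 7, -0.015) and proteases and others (3 of 7, -0.06). The median of the whole list was 0.14 without R249C/R249C replicate 1, 0.19 without WT/WT replicate 1 and 0.22 without WT/WT replicate 2. In WT/R249C against WT/WT, 34 were higher and 15 lower (median 0.31), against 51.5% of all genes higher. In R249C/R249C against WT/R249C, 22 of 47 were higher and 25 lower (median -0.09), against 50.8% of all genes higher. The median for WT/R249C was 0.59 when WT/R249C replicate 5 was left out and 0.18 when WT/WT replicate 1 was, and the median of R249C/R249C against WT/R249C changed sign in several alternatives, up to 0.20 without WT/R249C replicate 2. The fatty acid elongase Elovl4, which makes the very long chains of barrier lipids, had the smallest p of these in both comparisons with WT/WT. It was at 12.02, 8.20 and 13.0 CPM in the R249C/R249C libraries, 12.8, 10.9, 20.1, 11.6 and 9.28 in WT/R249C and 15.7, 30.0 and 28.3 in WT/WT. Its log2 fold change was -1.12 (SE 0.49, unadjusted p = 0.0477, adjusted p = 1 by edgeR) in R249C/R249C and -0.94 (SE 0.39, unadjusted p = 0.0384, adjusted p = 1 by edgeR) in WT/R249C, each against WT/WT. The R249C/R249C values lay below all WT/WT values, as for 4.68% of all genes tested. All R249C/R249C libraries are of batch A, as is WT/WT replicate 1 (15.7 CPM), while WT/WT replicates 2 and 3 (30.0 and 28.3) are of batch B. Envoplakin (Evpl), an envelope scaffold protein, averaged 8.02 ± 5.21 CPM in R249C/R249C, 7.91 ± 6.94 in WT/R249C and 2.20 ± 3.23 in WT/WT, where replicates 1 and 2 were at 0.350 and 0.324 and replicate 3 at 5.93. Its log2 fold change was 3.40 (SE 1.54, unadjusted p = 0.055, adjusted p = 1 by edgeR) in R249C/R249C and 2.66 (SE 1.24, unadjusted p = 0.06, adjusted p = 1 by edgeR) in WT/R249C, each against WT/WT. In R249C/R249C against WT/R249C the smallest p belonged to Sprr2h and the plakophilin Pkp1 (unadjusted p = 0.127 and 0.136, adjusted p = 1 by edgeR). Between batches they belonged to Grhl2, a paralogue of Grhl1, which averaged 39.6 ± 8.76 CPM in batch B and 60.7 ± 15.5 in batch A, opposite to Grhl1, and to Ly6d (unadjusted p = 0.00863 and 0.0248, adjusted p = 1 by edgeR). In the difference between batches they belonged to the lipoxygenase Alox12b and to Ly6d (unadjusted p = 0.00431 and 0.0137, adjusted p = 0.983 by edgeR). DESeq2 called Alox12b there (adjusted p = 0.0038) and no other gene of the 50 in any comparison.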

How the data were processed

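Bulk RNA-seq of sorted thymic epithelium was analysed from a table of raw counts per gene deposited by the authors; the mm39 build and the tools HISAT2, StringTie and FastQC are named in the submitters' processing notes, and which tool counted, and whether by strand, is not stated. Column names of batch A hold the word trimmed and those of batch B do not. All 11 columns were used; symbols were matched for 52073 of 56691 gene IDs. CPM are counts scaled to the column total. Levels per length used exon lengths of GENCODE M21 (GRCm38), a build other than that of the counts, with all annotated exons of a gene merged. The 32 genes, the roles and the lists were chosen with earlier results of these data known.

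The main test was edgeR 4.0.16 (quasi-likelihood, robust, TMM scaling, its default filter on low counts, R 4.3.3), with genotype and batch over 11 libraries, genotype over the 6 batch A libraries for R249C/R249C against WT/R249C, and an interaction over 8 libraries; p-values were adjusted over all genes tested at 0.05. The alternatives were RLE scaling, no filter, DESeq2 1.42.0, limma voom 3.58.1 with quality weights, a replicate block, no batch term, single batches, other treatment of the contested libraries and leaving out each library. Leaving out WT/R249C replicates 3 and 5 together was chosen after seeing the data. The fit was also run on simulated counts with known fold changes, for R249C/R249C against WT/WT and against WT/R249C. No batch difference was simulated, and the outcome is not given here. Libraries held 60560348 to 182319976 counts. The labels call the libraries biological replicates and do not say how many animals made each, so p-values measure the spread between these libraries. Genes given fold changes were the 3 of smallest p per comparison and Klk5, which was named after its values were seen. Of the other epidermal genes the 2 of smallest p are named.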

Additional observations from a re-analysis of the deposited data

Results flagged for a closer look

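Dsc1, a desmosomal cadherin of the upper epidermis, was far from the rest of its genotype in WT/R249C replicate 2, at 1.20 CPM, where the next library of the genotype had 0.134 CPM and the other three were at 0. On the scale of log2(CPM + 1), the gap made up 0.841 of the range of the 5 libraries, above Dixon's critical value of 0.71. In R249C/R249C, 1 of 3 libraries had counts of Dsc1 (1.89 CPM), and in WT/WT none. Groups of 5 were tested for 33 genes, and chance alone flags about 1 in 20 groups of normally spread values. With 3 of the 5 Dsc1 values at 0, that rate may not hold here. No difference between batches in the effect of WT/R249C passed the adjusted threshold in edgeR.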

How the results depend on the processing

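In the 3 genotype comparisons and between batches, the genes named for their smallest p kept the direction of their fold change under each alternative that tested them. The fold change of Klk5 was not followed under the alternatives. The medians of the 32 genes also kept their direction, while the number of the 32 on the higher side in R249C/R249C against WT/WT moved between 19 and 28. The median of the 50 other genes in R249C/R249C against WT/R249C (-0.09) changed sign, to 0.07 with a replicate block, 0.01 with all 11 libraries and -0.13 to 0.20 leaving out 1 library. The count of genes past the threshold was 0 in edgeR and limma under every alternative, while DESeq2 called 408 genes in R249C/R249C against WT/WT (3 of the epidermal list), 276 in WT/R249C against WT/WT (2), 33 in R249C/R249C against WT/R249C (0), 181 between batches (1) and 810 in the difference between batches (3). The adjusted p of Calml3 and Casp14 in R249C/R249C against WT/WT lay between 0.00577 and 1 and between 0.00342 and 1 over all alternatives, and that of Grhl1 between 0.152 and 1. The median log2 fold change of the list moved most. Without the contested libraries it was 1.37 in R249C/R249C against WT/WT, 1.34 in WT/R249C against WT/WT and 1.27 between batches, and within batch A it was 1.27 and 1.37 for the comparisons with WT/WT. With no batch term it was 0.36 and 0.05, and with the contested libraries counted as R249C/R249C 0.42, 0.12 and, between batches, 0.19. Leaving out 1 library gave 0.57 to 1.04 (highest without WT/R249C replicate 5), 0.12 to 0.75 (highest without WT/WT replicate 3), 0.12 to 0.86 in R249C/R249C against WT/R249C, 0.44 to 0.81 between batches (highest without WT/WT replicate 2) and -1.71 to -0.46 in the difference between batches (without WT/R249C replicates 4 and 1). The cause of these shifts was not tested. Deviations from the genotype mean correlated at -0.128 to 0.124 between libraries of the same replicate number, with 1 of 9 over 0.1. Of 9 libraries, 3 were closest to one of their own number. Batch was not removed from these deviations, and WT/WT replicates 2 and 3 are of batch B while the other libraries compared are of batch A. The check found no pairing by number but cannot exclude it. With a replicate block the medians were 1.89, 1.68, 0.47 (R249C/R249C against WT/R249C) and 2.35 (batches), and no gene passed. Groups of 3, 5 and 3 libraries, with 1 WT/WT library in batch A, and counts of 0 limit what can be seen: zeros bound a gene at under 0.0165 to 0.0495 CPM, for counting error only.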
